A study of Mus musculus with 18 samples.

Results

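Basal stem cells (BSCs) of the mouse trachea were compared with the non-basal cells of the same tracheas over the whole transcriptome. The members were 6 of the 18 RNA sequencing samples of the series: 3 of tracheal cells that stained for the nerve growth factor receptor (NGFR), labelled basal, and 3 of the NGFR-negative cells, labelled non-basal. Each of mice 1, 2 and 3 gave 1 sample of either kind, so the comparison could be read within a mouse. All were untreated mice of the C57BL/6 strain, which the study's methods describe as young adult males. The methods describe the tracheal epithelium as peeled off after dispase, brought to single cells with trypsin and stained with an NGFR antibody. They name neither a depletion of blood or vessel cells nor an EpCAM gate for this tissue. By the methods text alone, the non-basal samples may therefore hold any NGFR-negative cells that the peeled sheet released. The transcript *Ngfr* was part of how the groups were chosen. The remaining 12 samples were of lung populations from other mice and entered here through the shared estimate of spread and the filter on low counts.

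Basal cells sit on the basement membrane of the pseudostratified airway epithelium. They carry keratins and the transcription factor p63, anchor the epithelium through hemidesmosomes, and divide and differentiate into the luminal cells. The luminal layer is made of secretory (club and goblet) cells, which release secretoglobins, antimicrobial proteins and mucins, and of multiciliated cells, whose beating axonemes move the mucus. Tuft cells, neuroendocrine cells and ionocytes are rare luminal types.

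Counted reads were between 29317215 and 31028030 in BSC samples and between 30474913 and 32993621 in non-basal samples, against 9811503 to 13208897 in the lung samples. Levels are given below as RPKM, which are counts scaled to gene length and to a library total adjusted by edgeR's TMM factors. Differences are the log2 fold change of BSCs over non-basal cells, from edgeR's quasi-likelihood test on the counts. That test prints no standard error (SE). The SE given here is approximate, the absolute log2 fold change divided by the square root of the test's F statistic. A gene was called at a Benjamini-Hochberg adjusted p under 0.05, and was past the 2-fold rule when glmTreat with a minimum fold of 2 did so. Genes were tested above 0.2 CPM (counts scaled to a common library total) in at least 3 of the 18 samples, so some passed through lung samples alone.

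BSCs had higher levels of 3948 genes (21.9%) and lower levels of 4720 (26.2%), out of 17989 tested. Counts of calls in the gene lists below are to be set against these shares. The 2-fold rule kept 758 genes higher (4.21%) and 1784 genes lower (9.92%). Of these, 758 and 1783 differed in that direction in each of the 3 mice. The same samples had selected these genes, so that agreement is not a separate replication. The split depended on scaling: with library size alone, 7780 genes were higher and 2989 lower, since the median log2 difference of all genes moved from -0.02 to 0.31. *Bpifa1* alone took 13.86% to 14.11% of the reads in non-basal samples, and the 10 most abundant genes took 25.76% to 26.81% there against 8.276% to 9.401% in BSCs. Differences below are relative to the TMM scale, on which about as many genes lay above 0 as below it.

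**Figure D1:**
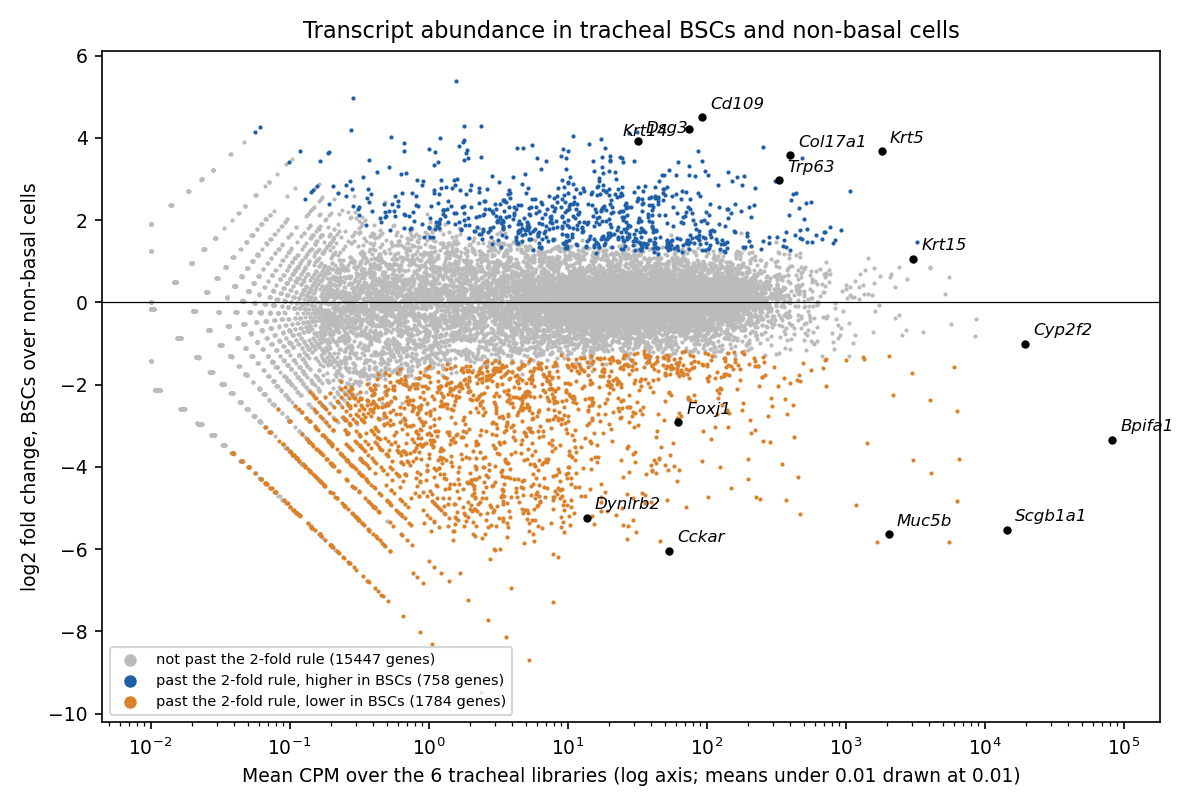
Each point is 1 of the 17989 genes tested, placed by its mean CPM over the 6 tracheal samples (x axis, log scale) and its log2 fold change of BSCs over non-basal cells (y axis). Blue and orange points are the 758 and 1784 genes past the 2-fold rule, and the most abundant of the orange points are secretory genes such as *Bpifa1* and *Scgb1a1*.

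The labels were first held against the markers. *Krt5* (chr15:101707069-101712905, mm10), a keratin of basal cells, was at 1567, 1571 and 1478 RPKM in the BSCs of mice 1, 2 and 3 and at 126, 103 and 130.0 RPKM in their non-basal cells. *Trp63* (chr16:25683763-25892088), which encodes p63, was at 86.8, 102 and 104 RPKM against 8.93, 11.3 and 16.9 RPKM, and *Ngfr* (chr11:95568818-95587698) at 42.3, 36.9 and 39.7 RPKM against 4.18, 3.12 and 4.68 RPKM. The 3 transcripts were higher in the BSCs of every mouse, with no overlap between the groups, by log2 differences of 3.68 ± 0.24, 2.97 ± 0.26 and 3.31 ± 0.17 (SE). Of the 16 basal cell markers listed, *Ngfr* included, 16 were called higher and 13 passed the 2-fold rule. Their median log2 difference was 2.70 against -0.02 for all genes. The list was chosen with earlier results of these data known, so its counts describe the groups and do not test the labels. Markers nearest to an even level were *Krt15* at 1.07, *Pdpn* at 1.21 and *Cd44* at 0.87.

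*Bpifa1* (chr2:154142880-154149217), which encodes a secreted antimicrobial protein of airway secretory cells, ran the other way, at 18174, 12367 and 10111 RPKM in BSCs and 138640, 136750 and 134880 RPKM in non-basal cells. Its level in BSCs was 9.91% of that in non-basal cells, yet it was still the transcript of highest RPKM in BSCs (mean 13551), followed by the secretory genes *Cyp2f2* at 7105 and *Cbr2* at 6028. *Krt15* was eighth in that order at 2414 RPKM, and the others among the 10 highest were the mitochondrial genes *COX1*, *CYTB* and *ND1*, the immediate early gene *Fos*, *Gsto1* and *Scgb3a2*. Other secretory genes stood lower in BSCs than *Bpifa1* did, with *Scgb1a1* at 2.18% and *Scgb3a1* at 1.76% of their non-basal level, whereas *Cyp2f2* was at 49.8%. The BSC samples thus held secretory transcripts in unequal proportions, and *Bpifa1*, *Cyp2f2* and *Scgb1a1* were highest in mouse 1 and lowest in mouse 3. In sorted bulk samples, fewer cells of a type and less RNA per cell cannot be told apart, and reads carried over from secretory cells were not tested.

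**Figure D2:**
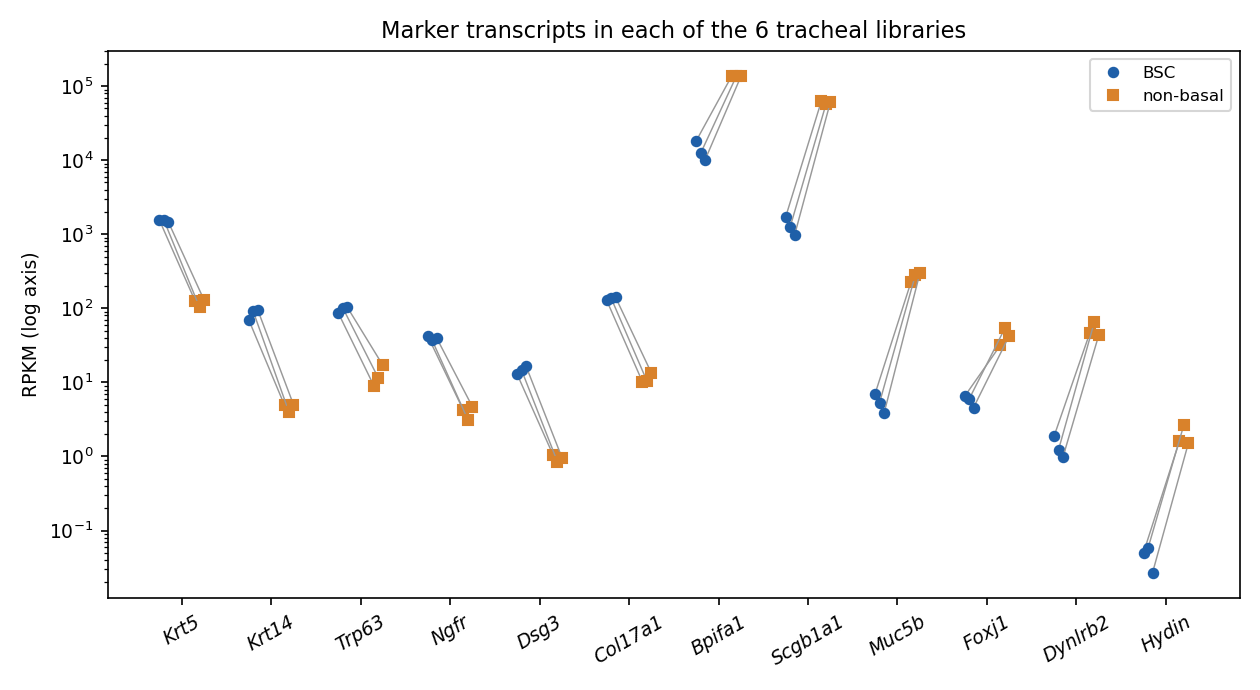
RPKM (y axis, log scale) of 12 transcripts in the BSC (blue circles) and non-basal (orange squares) sample of each mouse, with a grey line joining the samples of a mouse. The basal transcripts on the left are higher in the BSCs of every mouse and the secretory and ciliary transcripts on the right are lower, without overlap.

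The largest rises, ranked among genes past the 2-fold rule with a mean of at least 10 CPM and no overlap, were led by *Cd109*, a membrane protein known to bind TGF-beta, at 28.7, 27.7 and 33.7 RPKM in BSCs against 1.39, 0.940 and 1.62 RPKM, a log2 difference of 4.51 ± 0.20 (adjusted p = 1.95e-11). *Krt14* (chr11:100203162-100207510), the partner keratin of *Krt5*, followed at 69.9, 91.0 and 95.6 RPKM against 4.91, 3.96 and 5.00 RPKM, 4.21 ± 0.21. *Vsnl1*, a neuronal calcium sensor, was next at 4.14. The NADPH oxidase *Duox1* and its maturation factor *Duoxa1*, which share a locus, were higher by 4.12 and 3.85. *Duox1* was at 9.61, 9.76 and 10.5 RPKM in BSCs and 0.582, 0.480 and 0.649 RPKM in non-basal cells. The other leading rises were *Tpm2*, a tropomyosin (4.06), the phosphatase subunit *Ppp2r2c* (3.96), the desmosomal cadherin *Dsg3* (3.93), *Ccdc3* (3.79), the protease *Tmprss11g* (3.75), *Igfbp2* (3.69), *Krt5*, *Col17a1* and the matrix protein *Tnc* (3.57). *Ifi202b*, an interferon-inducible gene with near-identical relatives, was higher by 3.69 but uneven between mice, at 44.3, 102 and 124 RPKM in BSCs and 3.53, 6.82 and 10.5 RPKM in non-basal cells, lowest in mouse 1 on both sides.

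Among the 15 largest falls, *Cckar*, a cholecystokinin receptor, came first at 0.612, 0.566 and 0.453 RPKM in BSCs against 34.5, 36.3 and 36.6 RPKM in non-basal cells, a log2 difference of -6.04 ± 0.19. *Bpifb1*, *Scgb3a1*, *Muc5b* and *Scgb1a1* represented the secretory cells, and *Cfap65*, *Dnah3*, *Dnah10*, *Deup1*, *Hydin*, *Dnah6* and *Dynlrb2* the multiciliated cells. The rest were the sulfotransferase *Sult1c1* (-5.80), the fucosyltransferase *Fut9* (-5.76) and the prostaglandin receptor *Ptgfr* (-5.21).

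Keratins split by type. Of 11 keratins of stratified epithelia tested, 9 were higher, 7 of them past the 2-fold rule, and 1 was lower. *Krt17* was higher by 3.52 ± 0.15 at 587 RPKM in BSCs, and the stress keratins *Krt16* and *Krt6a* were higher by 3.14 and 2.60 at means of 5.65 and 38.3 RPKM. The exception was *Krt23*, lower (log2 difference -1.81 ± 0.16 SE). Of 5 simple-epithelial keratins, *Krt8* and *Krt18*, which pair in luminal cells, were lower (-0.55 and -1.01, the call of *Krt8* being lost with library size alone), *Krt7* was higher (0.75) and *Krt19* was at 1106 and 1280 RPKM, a difference called only with the mouse as a block (adjusted p = 0.0118).

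Genes of adhesion to the matrix were mostly on the BSC side. Of 25 hemidesmosome and basement membrane genes tested, 23 were higher (14 past the 2-fold rule) and 1 lower, with a median log2 difference of 1.53. The 6 hemidesmosome genes were each higher. *Col17a1*, the collagen that spans the hemidesmosome, was at 128, 137 and 140.3 RPKM in BSCs against 10.2, 10.4 and 13.4 RPKM, and the integrin pair *Itga6* and *Itgb4* was higher by 2.08 ± 0.09 and 2.42 ± 0.18. The plakins *Dst* and *Plec*, which tie the plaque to keratin, were higher by 2.13 and 1.46. All 7 laminin genes tested were called higher, led by *Lama3* (3.41) and *Lamb3* (2.95). *Col7a1*, the anchoring fibril collagen, was at 27.7 RPKM against 3.09 RPKM, and *Agrn* and *Col4a6* were both higher by 1.53 and 1.53. The fall was *Nid1*, at 0.0637 RPKM in BSCs and 0.384 RPKM in non-basal cells, low on both sides.

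Of 35 integrin and focal adhesion genes, 25 were higher and 1, *Ilk* at -0.21, was lower. That direction turned with library size alone, and leaving out any of the 6 samples ended the call (adjusted p = 0.0583 to 0.104). In contrast, 3 genes were lower with the mouse as a block, and 6 with a gene length correction added to it. *Itga3*, a laminin receptor subunit, was higher by 1.44 ± 0.14 at 85.2 RPKM, and *Itgb1*, its beta chain, by 0.90. Among the adaptors, *Tns4*, *Tns1* and *Fermt1*, which bind integrin tails, were higher by 3.09, 2.96 and 2.82, and *Cav1*, the caveolar coat protein, by 2.50 at 248 RPKM.

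Cell to cell junctions differed in direction by junction type. All 4 desmosomal cadherins tested were higher in BSCs: *Dsg3* was at 12.8, 14.5 and 16.4 RPKM against 1.05, 0.846 and 0.967 RPKM in non-basal cells, *Dsc3* was higher by 3.42, *Dsc2* by 2.26 and *Dsg2* by 1.22. The plaque genes *Pkp1* (3.07), *Dsp* (1.52), *Perp* (1.48) and *Pkp3* (1.12) were higher too, while *Pkp2* was lower (-1.07). Of 42 tight junction and polarity genes 17 were lower (40.5%) and 11 higher (26.2%), against 26.2% and 21.9% of all genes. With library size alone 14 were lower and 16 higher. Here 6 of 12 claudins tested, the sealing proteins of tight junctions, were lower and 1 higher, with a median log2 difference of -1.02. That median includes *Cldn18*, which had 0 reads in each BSC sample and at most 1 in any non-basal sample. *Cldn10* was at 5.49, 3.88 and 4.24 RPKM in BSCs against 38.0, 35.3 and 37.6 RPKM, *Cldn3* and *Cldn23* were lower (log2 differences -1.54 and -1.40), and the exception was *Cldn1* at 2.36. The plaque protein *Cgnl1* was lower (-1.96), as was the polarity gene *Llgl2* (20.5 RPKM against 40.8 RPKM). The planar polarity genes *Celsr2* and *Vangl2* were both higher by 1.51 and 1.51, while *Celsr3* and *Prickle2* were lower (log2 differences -3.49 and -2.03) at low levels. Of the 20 polarity genes 8 were higher and 6 lower.

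Members of the cadherin superfamily lay on both sides. *Cdh1* (E-cadherin) was at 112 and 129 RPKM. It was not called by the main test but was lower by limma voom (adjusted p = 0.0282), DESeq2 (adjusted p = 0.0218) and with the mouse as a block (adjusted p = 0.00184), among other fits, and its direction turned with library size alone. *Cdh3* (P-cadherin) was higher by 3.10 ± 0.21 at 19.9, 22.7 and 23.7 RPKM against 1.94, 2.23 and 3.57 RPKM, and *Cdh13* and *Fat2* were higher by 2.75 and 2.65. *Cdhr3*, *Cdhr4* and *Cdh26* were lower (log2 differences -5.07, -4.61 and -4.21). *Nectin1* was higher (2.19) and *Nectin4* lower (-1.30).

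**Figure D3:**
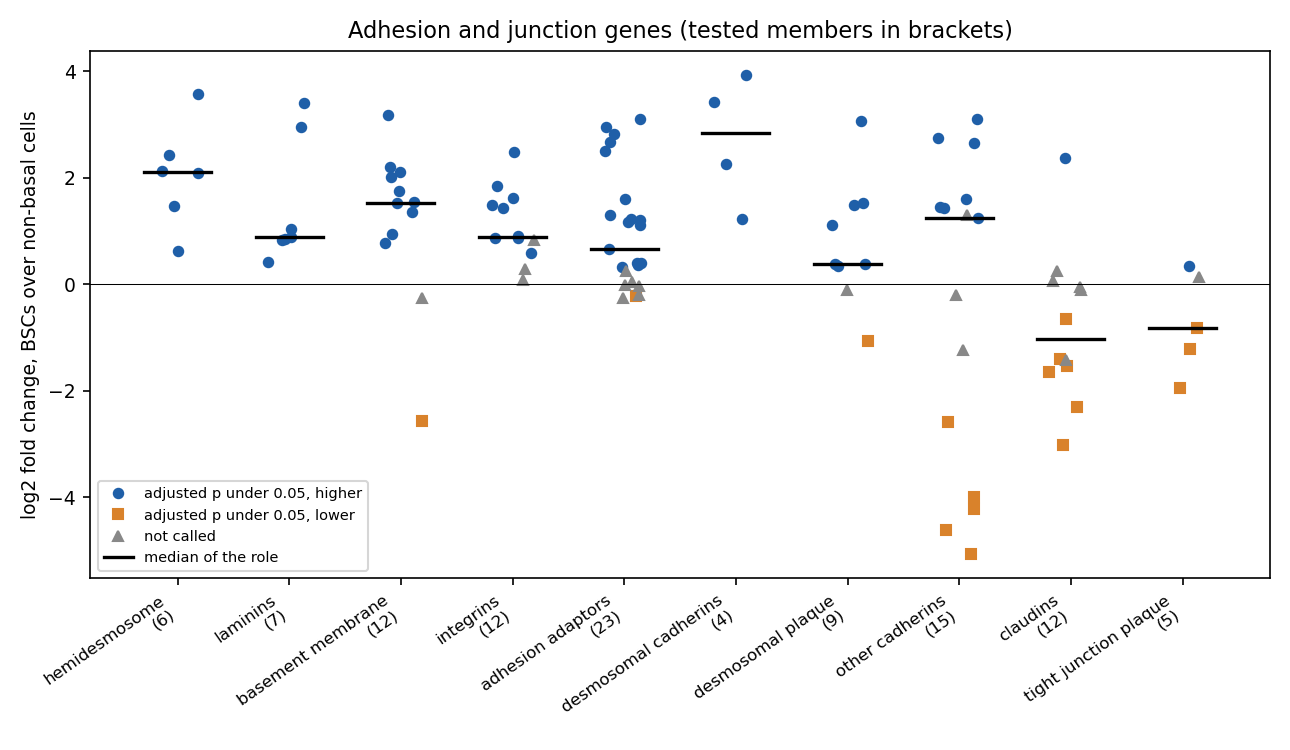
log2 fold change of BSCs over non-basal cells (y axis) for the tested members of 10 adhesion roles, with the number of members in brackets. Blue circles and orange squares are called genes, grey triangles are not called, and bars are medians; the matrix and desmosome roles lie above 0 and the claudins and tight junction plaque below it, with *Cldn1* the highest claudin.

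Of 37 Notch pathway genes, 12 were higher and 13 lower. On the library size scale those counts were 20 and 10. Notch signalling passes between neighbouring cells and is known to steer luminal fate in airways. The ligands *Jag2* and *Dll1* were higher in BSCs: *Jag2* was at 87.0, 98.9 and 104 RPKM against 10.4, 13.3 and 18.3 RPKM and *Dll1* at 18.3, 22.6 and 25.7 RPKM against 2.47, 3.64 and 5.07 RPKM, and *Jag1* was higher by 1.02. The other 2 of the 5 ligands were lower, with means under 1 RPKM in both groups, but only 1 was without the BSC sample of mouse 1 or 3 or the non-basal sample of mouse 1. The receptors diverged: *Notch1* was higher by 2.40 ± 0.12, whereas *Notch2* and *Notch3* were lower (log2 differences -1.56 ± 0.12 and -1.35 ± 0.22). Among 6 target genes 3 were lower, including *Heyl* (0.0103 RPKM against 0.392 RPKM) and *Nrarp* (-1.08). *Hes1* was at 76.1, 233 and 189.9 RPKM in BSCs against 95.6, 316 and 291 RPKM. It was lower within each mouse and was called with the mouse as a block (adjusted p = 3.96e-05) and without the non-basal sample of mouse 1 (adjusted p = 0.0183), but not in the fit of all samples. The non-canonical ligand *Dlk2* was higher (2.42) and the glycosyltransferase *Lfng* was higher (1.15).

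Growth factor receptors also differed by member, with 8 of 18 EGF family genes higher and 4 lower (7 lower with the mouse as a block and a gene length correction), and 12 of 24 FGF family genes higher and 3 lower. *Egfr* was at 27.7, 30.8 and 31.9 RPKM in BSCs against 7.34, 7.76 and 8.90 RPKM in non-basal cells, a log2 difference of 1.91 ± 0.12, while *Erbb4* was lower (log2 difference -2.09) at low levels. The neuregulins *Nrg1* and *Nrg2* were higher (3.25 and 2.69), as was *Hbegf* (1.21), and *Btc* was lower (-1.88). *Fgfr2* and *Fgfr3* were higher by 1.36 ± 0.11 and 1.09 ± 0.13 at 101 and 121 RPKM, and *Fgfr1* was lower (log2 difference -1.05). Of 9 feedback genes of this pathway 8 were higher, among them *Dusp6* at 143, 216 and 194 RPKM against 58.9, 76.4 and 76.5 RPKM, *Spred2* (1.46) and *Etv5* (1.91).

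Of 57 Wnt pathway genes, 25 were higher (43.9%) and 13 lower (22.8%), against 21.9% and 26.2% of all genes. The ligand with the most transcript in BSCs was *Wnt4*, at 91.2, 97.7 and 98.2 RPKM against 17.2, 17.5 and 20.6 RPKM (adjusted p = 2.42e-09). *Wnt10a* was higher by 3.44 ± 0.24 at 18.7 RPKM, and *Wnt9a* and *Wnt3a* by 1.86 and 2.49. *Wnt5a* and *Wnt11* were lower, at 0.287 and 0.349 RPKM in BSCs against 3.10 and 3.12 RPKM. Of 18 receptors 11 were higher, led by *Fzd10* (2.20) and *Fzd1* (1.51), with 2 lower. Of 11 inhibitors 4 were higher and 6 lower (median log2 difference -1.67). The summed level of the listed inhibitors ran the other way, at 340.3 to 379.4 CPM in BSCs against 138.1 to 147.1 CPM in non-basal cells. The higher ones include *Sfrp1* and *Dkk3* (2.76 and 2.33), and the 6 lower ones had means under 2 RPKM in both groups. On the 6 tracheal samples alone 7 inhibitors were tested and 3 were lower. Of 11 target genes 3 were higher and 3 lower, or 1 lower without the BSC sample of mouse 2 or the non-basal sample of mouse 1. The target *Axin2* was at 0.0868, 0.130 and 0.106 RPKM in BSCs and 0.280, 0.363 and 0.359 RPKM in non-basal cells, under 1 RPKM in each sample.

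The BMP and TGF-beta genes were largely on the BSC side, with 31 of 46 higher and 5 lower and a median log2 difference of 0.64. The lower count was 8 by DESeq2 and on the 6 tracheal samples alone, with or without the mouse as a block. *Bmp7*, *Tgfb1*, *Bmp3* and *Bmp4* were higher by 2.56, 2.23, 2.32 and 1.99, and *Inhba* was lower (log2 difference -3.36). The latent TGF-beta binding protein *Ltbp4* was at 129 ± 4.52 RPKM (SD, n = 3) against 20.8 ± 4.24 RPKM. Of 12 genes listed as targets of the pathway 9 were higher and 2 lower. The former include *Tgfbi* (3.45 ± 0.15), *Thbs1* (2.03 ± 0.26) and the BMP targets *Id1* (1.30), *Id2* (1.56) and *Id3* (1.59). *Ltbp2* and the antagonist *Nog* were lower, *Nog* at 0.00479 RPKM in BSCs against 0.321 RPKM.

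Of 14 Hedgehog genes 6 were higher, including the effectors *Gli3* (2.51) and *Gli2* (2.16), and 4 were lower, 2 of 9 with the mouse as a block, where a gene had to pass the filter in tracheal samples. Of 26 Hippo pathway genes 13 were higher and 5 lower (1 lower with library size alone, 8 with the mouse as a block and a gene length correction). *Yap1* was higher by 0.58, *Amotl1*, *Axl* and *Ajuba* were higher by 2.86, 2.85 and 2.31, and the YAP target *Ccn2* was lower (log2 difference -0.56), a call lost with library size alone. In the guidance list 29 of 61 were higher and 11 lower. The neurotrophins *Ntf3* and *Ntf5* were higher, *Ntf3* at 16.2, 18.1 and 20.0 RPKM against 2.35, 2.70 and 3.77 RPKM and *Ntf5* at 10.5 RPKM against 3.68 RPKM. The neurotrophin receptor gene *Ntrk2* was at 0.0123 and 0.0349 RPKM.

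**Figure D4:**
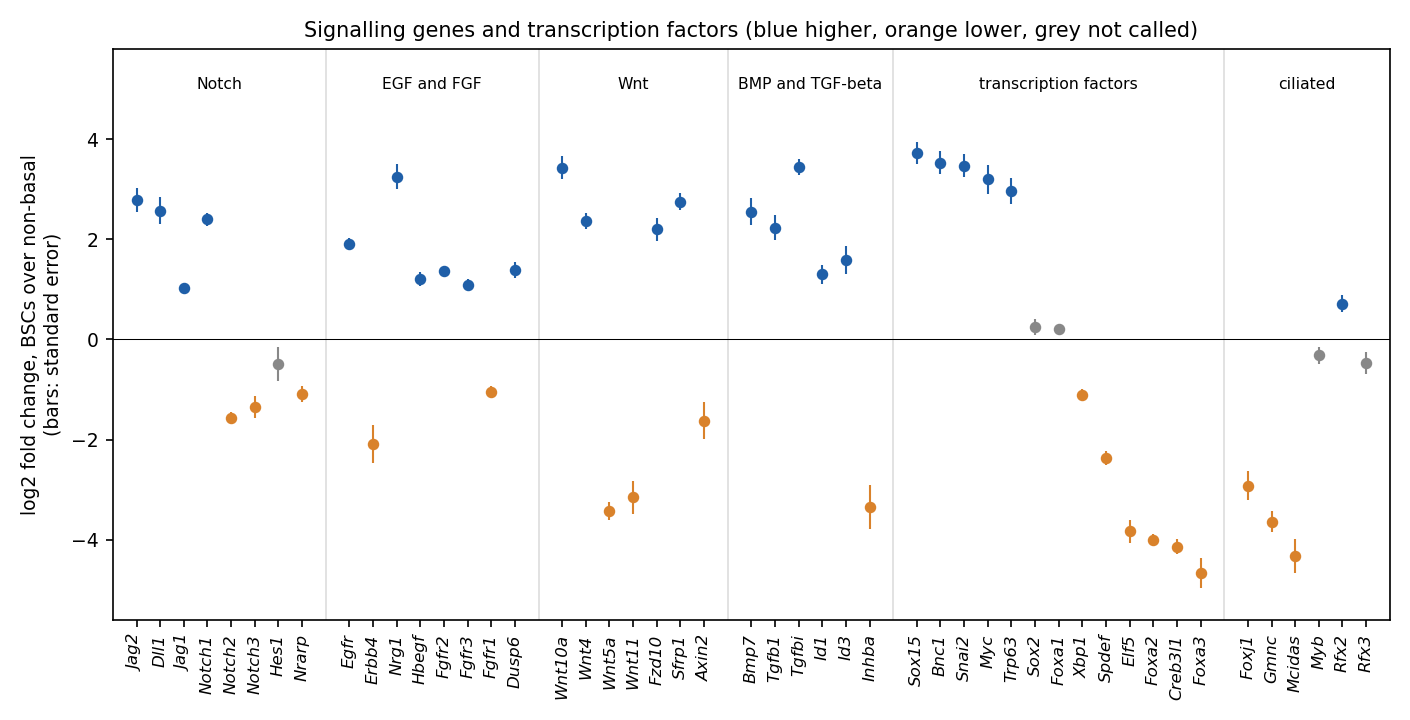
log2 fold change of BSCs over non-basal cells (y axis, bars of 1 standard error) for signalling genes and transcription factors named in the text, blue where higher, orange where lower and grey where not called. Members of a pathway fall on both sides of 0, as *Notch1* and *Notch2*, *Wnt4* and *Wnt5a*, and *Bmp7* and *Inhba* do.

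Of 46 transcription factors listed for basal or stratified epithelium, 24 were higher and 6 lower. *Sox15*, *Bnc1*, *Snai2* and *Myc* led: *Sox15* was at 17.0, 14.4 and 14.3 RPKM in BSCs against 1.26, 1.02 and 1.14 RPKM, and *Myc* at 48.2, 80.7 and 90.8 RPKM against 5.24, 7.82 and 10.8 RPKM. They were higher by 3.73 ± 0.22, 3.54 ± 0.23, 3.47 ± 0.22 and 3.20 ± 0.28. *Barx2*, *Tbx2*, *Klf4* and *Pitx1* were higher by 2.36, 2.39, 1.76 and 1.32. *Sox2*, a factor of the whole proximal airway, was at 78.9, 88.5 and 86.5 RPKM and 68.1, 68.6 and 76.8 RPKM. It was not called by the main test but was higher with library size alone (adjusted p = 0.00329) and in the fits of the 6 tracheal samples without (adjusted p = 0.0131) and with the mouse as a block (adjusted p = 0.00109). *Zfp750*, known from the late differentiation of stratified epithelium, was lower (-1.58), and so was *Zeb1* (-2.55).

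The 52 luminal and secretory factors were mixed, with 16 higher and 19 lower, of which 2 and 10 passed the 2-fold rule. On the library size scale these counts became 25 and 15. *Foxa3*, *Creb3l1*, *Elf5* and *Spdef*, the last of which drives goblet differentiation, were lower (log2 differences -4.67 ± 0.30, -4.14 ± 0.16, -3.83 ± 0.23 and -2.37 ± 0.14). *Creb3l1* was at 2.47, 2.09 and 1.59 RPKM in BSCs against 34.9, 37.1 and 36.5 RPKM, and *Foxa2* at 0.548, 0.572 and 0.544 RPKM against 9.53, 8.80 and 8.51 RPKM. *Foxa1*, by contrast, was at 157 and 135 RPKM and was not called by the main test, although it was by limma voom (adjusted p = 0.0400), DESeq2 (adjusted p = 0.0365) and with the mouse as a block (adjusted p = 0.00243), among other fits. *Xbp1*, a factor of the secretory pathway, was lower (log2 difference -1.10). *Sox4* and *Ppara* were the listed factors past the 2-fold rule in BSCs (1.32 and 1.82).

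Secretory genes were lower in BSCs almost throughout: of 54 tested, 47 were lower (44 past the 2-fold rule) and 2 higher, with a median log2 difference of -3.24. *Scgb1a1* (chr19:9083642-9087956), the club cell secretoglobin, was at 1706, 1249 and 972 RPKM in BSCs against 63181, 56535 and 60838 RPKM. *Muc5b*, the main gel-forming mucin of airway secretions, was at 7.03, 5.35 and 3.83 RPKM against 225, 281 and 297 RPKM, whereas *Muc5ac* was at 0.116 and 2.23 RPKM. The host defence genes *Reg3g*, *Ltf*, *Pigr* and *Lyz2* were lower (log2 differences -4.83, -3.81, -4.92 and -4.14). Reads of *Lyz2* may be shared in part with *Lyz1*. The exceptions were the mucin *Muc15*, under 1 RPKM in both groups and not called by DESeq2 or, left under the filter, without any 1 of the BSC samples, and *Clca2*, at 7.22, 7.16 and 8.64 RPKM in BSCs against 1.22, 1.42 and 2.01 RPKM. Summed over the list, 36690 to 51290 CPM of the BSC samples and 294300 to 311700 CPM of the non-basal samples fell on secretory genes. By role, the BSC sum was 5.09% of the non-basal sum for secretoglobins, 9.74% for the BPI fold genes and 44.5% for the group of *Cyp2f2*, *Cbr2* and 9 other club cell genes.

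Metabolism and transport differed in part with the secretory genes. Of 65 xenobiotic genes 40 were lower and 11 higher. The cytochromes *Cyp2a5* and *Cyp2b10* were lower (log2 differences -3.82 and -2.04), with *Cyp2a5* at 234 RPKM against 3305 RPKM, and its near-identical copy *Cyp2a4* may share its reads. *Aldh1a1* was lower (-2.37), while *Aldh1a3*, another retinal dehydrogenase, was higher (1.75), and so were *Cyp2s1* (1.47), *Fmo2* (0.76) and *Gstm1* (0.53). Of 48 ion and water transport genes 30 were lower and 10 higher. The epithelial sodium channel subunits *Scnn1b* and *Scnn1g* were lower (log2 differences -2.54 and -1.58), and the chloride channel gene *Ano1* by -1.32. *Aqp3*, the water channel of basal membranes, was at 1118, 1022 and 1029.9 RPKM in BSCs against 166, 136 and 180 RPKM. *Atp1b1*, a subunit of the sodium pump, was lower (-1.14).

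Genes of immune signalling were divided as well. Of 20 interferon-response genes 17 were lower and 1 higher in BSCs, with a median log2 difference of -0.93. With library size alone, and on the 6 tracheal samples with or without the mouse as a block, 2 were higher. *Oasl2* was at 24.7, 22.4 and 23.1 RPKM against 67.5, 60.6 and 60.0 RPKM, *Irf7* and *Bst2* were lower (log2 differences -1.76 and -1.79), and the higher gene was *Ifit2* (0.65). Of 12 class I antigen presentation genes 10 were lower, among them *H2-K1* (-1.40) and *B2m* (-1.22), whereas 3 of 7 class II genes were higher. That number was 0 without the non-basal sample of mouse 2, and 1 without the non-basal sample of mouse 3 or the BSC sample of mouse 2 or 3, but 6 with library size alone and 5 with the mouse as a block and a gene length correction. Of 17 chemokines 6 were lower and 3 higher, with a median log2 difference of 0.13. The higher count was 7 with library size alone and 1 without the non-basal sample of mouse 2. *Cxcl5*, *Ccl28* and *Cxcl17* were lower (log2 differences -4.98, -3.50 and -2.85). *Il33* was lower (-4.31) at 0.0718 RPKM against 1.48 RPKM, and the interleukin 1 genes *Il1b* and *Il1rn* were higher (1.70 and 2.79). Of 26 receptors in the list 10 were higher and 5 lower. The lower count was 9 of 25 on the 6 tracheal samples alone and 2 with library size alone. *Il1rl2*, *Il20rb*, *Osmr* and *Il6st* were higher by 1.25, 1.91, 0.87 and 0.90.

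Of 80 genes of the motile axoneme, 69 were lower in BSCs (61 past the 2-fold rule) and the other 11 were not called, with a median log2 difference of -3.84. *Dynlrb2*, a dynein light chain, was at 1.88, 1.23 and 0.987 RPKM in BSCs against 46.8, 65.2 and 43.8 RPKM. *Hydin*, of the central pair, was at 0.0450 ± 0.0162 RPKM (SD, n = 3) against 1.92 ± 0.644 RPKM, and *Dnah10*, an inner arm dynein, at 0.107, 0.0689 and 0.0664 RPKM against 2.77, 4.96 and 2.71 RPKM. Non-basal cells of mouse 2 were highest for each of them: the 17 dynein arm genes summed to 651.0 CPM in that sample against 394.8 and 404.9 CPM in the others, while the BSC samples held 84.81 to 90.38 CPM. *Dnah7a* and *Spag6l* have near-identical copies with which their reads may have been split.

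The regulators of multiciliated fate were less uniform, with 11 of 26 lower and 4 higher (8 higher with library size alone, and 17 lower with the mouse as a block and a gene length correction). *Foxj1*, the master factor of motile cilia, was at 6.48, 5.93 and 4.57 RPKM in BSCs against 31.7, 53.8 and 42.9 RPKM, *Gmnc* and *Mcidas*, which start the programme, were lower (log2 differences -3.64 ± 0.21 and -4.32 ± 0.34), and *Deup1*, of the deuterosome that makes centrioles, was at 0.216, 0.219 and 0.0280 RPKM against 4.88, 7.92 and 7.26 RPKM. *Myb* was at 10.4 and 12.9 RPKM and was not called, although in the fits of the 6 tracheal samples without (adjusted p = 0.0180) and with the mouse as a block (adjusted p = 0.0112) it was. The RFX factors, which bind the X-box of ciliary genes, differed among themselves: *Rfx2* was higher by 0.71 ± 0.17, *Rfx3*, at 1.89 and 2.60 RPKM, was called lower only in some fits, such as that with the mouse as a block (adjusted p = 0.000517), and *Rfx4* was lower at 0.0222 RPKM in non-basal cells, a gene left out by the filter on tracheal samples alone.

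The 250 bases before the start of *Dynlrb2* and *Dnah10*, both among the largest falls, are shown because they hold the half-site GTTGCC of the X-box (searched on both strands and marked by capitals). Sequences are from RefSeq on GRCm38.p6, 5′ to 3′ on the plus strand, at chr8:116504765-116505014 and chr5:124724835-124725084.
Dynlrb2: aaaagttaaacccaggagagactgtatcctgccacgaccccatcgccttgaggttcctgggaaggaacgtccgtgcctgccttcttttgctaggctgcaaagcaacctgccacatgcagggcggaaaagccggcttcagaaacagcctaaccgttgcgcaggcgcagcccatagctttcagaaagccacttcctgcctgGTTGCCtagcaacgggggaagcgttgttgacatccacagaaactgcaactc
Dnah10: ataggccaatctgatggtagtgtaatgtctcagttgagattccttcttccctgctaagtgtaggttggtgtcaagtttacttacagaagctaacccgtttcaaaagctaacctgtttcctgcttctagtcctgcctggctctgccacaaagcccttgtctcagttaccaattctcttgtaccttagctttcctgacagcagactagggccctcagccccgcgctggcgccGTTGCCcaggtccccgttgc

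In these windows the half-site began 51 bases before the start in *Dynlrb2* and 20 in *Dnah10*. A promoter window before at least 1 RefSeq transcript start was matched for 13355 of the genes tested (74.2%), and a gene with several starts was counted when any of its windows held the letters. Of these, 12.6% held the half-site, against 23 of 68 (33.8%) of the axoneme genes with a promoter, 16.8% of the genes lower past the 2-fold rule and 10.4% of those higher. Other lists had shares as high or above the background too, among them antigen presentation (5 of 14, 35.7%), ion and water transport (8 of 31, 25.8%) and the FGF family (5 of 20, 25.0%). The letters were chosen after other spellings of the X-box had been counted, so the shares are a description.

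Rare luminal types were read from their markers. Of 16 neuroendocrine markers 15 were lower in BSCs, with *Chga*, a secretory granule protein of these cells, at 0.214 ± 0.0503 RPKM (SD, n = 3) against 5.61 ± 0.658 RPKM (log2 difference -4.69). Of 11 ionocyte markers 10 were lower, with *Foxi1* at 0.157, 0.0822 and 0.0480 RPKM against 2.16, 1.78 and 2.19 RPKM and *Cftr* lower (log2 difference -1.57). Tuft cell markers were closer to even: 11 of 17 were lower (7 without the non-basal sample of mouse 1), with a median log2 difference of -0.86. Among them *Pou2f3* was at 1.84, 1.95 and 1.51 RPKM against 4.04, 3.20 and 3.15 RPKM, whereas *Ptgs1* was higher (1.57). Of 9 markers of hillock cells, a stratified state of airway cells, 6 were higher, including *Lgals7* (4.28), *Sprr1a* (2.29) and *Krt13* (1.86). The 1 lower call was lost without the BSC sample of mouse 1 or 3, without the non-basal sample of mouse 2 or 3, and by DESeq2.

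Proliferation genes were higher in BSCs in 25 of 30 cases. *Mki67*, present in cycling cells, was at 14.1, 12.2 and 12.7 RPKM against 4.31, 4.34 and 4.36 RPKM, and *Mcm5*, of the replicative helicase, was higher by 1.09. *Plk1* was lower (-0.74). The median log2 difference of the list was 1.00, with 2 genes past the 2-fold rule.

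Markers of cells from outside the epithelium were also measured. Of 18 immune markers 5 were lower (27.8%) and 2 higher (11.1%) in BSCs, against 26.2% and 21.9% of all genes. The higher count was 4 on the 6 tracheal samples, with or without the mouse as a block, and 4 without the non-basal sample of mouse 1. It was 1 without the BSC or the non-basal sample of mouse 2 or 3. The summed level was 56.41 to 71.62 CPM in BSCs and 51.38 to 95.25 CPM in non-basal cells. The T cell genes *Cd8a* and *Cd3e* were at 0, 0 and 0 RPKM and 0.0198, 0 and 0 RPKM in BSCs against 0.903, 0.348 and 0.406 RPKM and 0.973, 0.440 and 0.499 RPKM, and *Nkg7* was at 0.0113 RPKM against 2.22 RPKM. The myeloid gene *Csf1r* was higher (0.84), beside the class II genes above, and the part of such cells in those differences was not tested. Of 12 fibroblast markers 10 were lower in BSCs, such as *Col1a1* and *Col3a1*, both under 5 RPKM in each sample, while *Dcn*, a proteoglycan, was higher at 160.3, 163 and 159 RPKM against 30.1, 26.7 and 38.8 RPKM. Of 7 chondrocyte markers 6 were lower, 2 without the non-basal sample of mouse 3, and none passed the filter on tracheal samples alone. Of 11 endothelial markers 2 were lower, against 8 by DESeq2. Of 9 smooth muscle and myoepithelial markers 2 were higher, among them *Mylk* (2.82), and 1 was lower. Without the non-basal sample of mouse 3 the higher calls came to 1, and limma voom called 0 lower.

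Genes that respond to tissue dissociation were higher in BSCs in 14 of 23 cases and lower in 1. The lower count was 4 on the 6 tracheal samples, with or without the mouse as a block. It was 0 without the BSC sample of mouse 1 or 3 or the non-basal sample of mouse 2 or 3. By role, 12 of 15 immediate early genes were higher, with a median log2 difference of 0.62. Of 8 heat shock genes 2 were higher, with a median of 0.02, and 3 were lower on the 6 tracheal samples alone. The summed level of the list was 34450 to 44580 CPM in BSC samples and 19140 to 26750 CPM in non-basal samples, lowest in mouse 1 on both sides. *Egr1* was at 1314, 1618 and 1734 RPKM against 395, 617 and 677 RPKM and *Fos* at 2850.2, 3442 and 3416 RPKM against 1694, 2260 and 2355 RPKM. The part of dissociation in *Klf4*, *Hbegf*, *Dusp6*, *Myc*, *Thbs1* and other inducible genes named above was not tested.

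**Figure D5:**
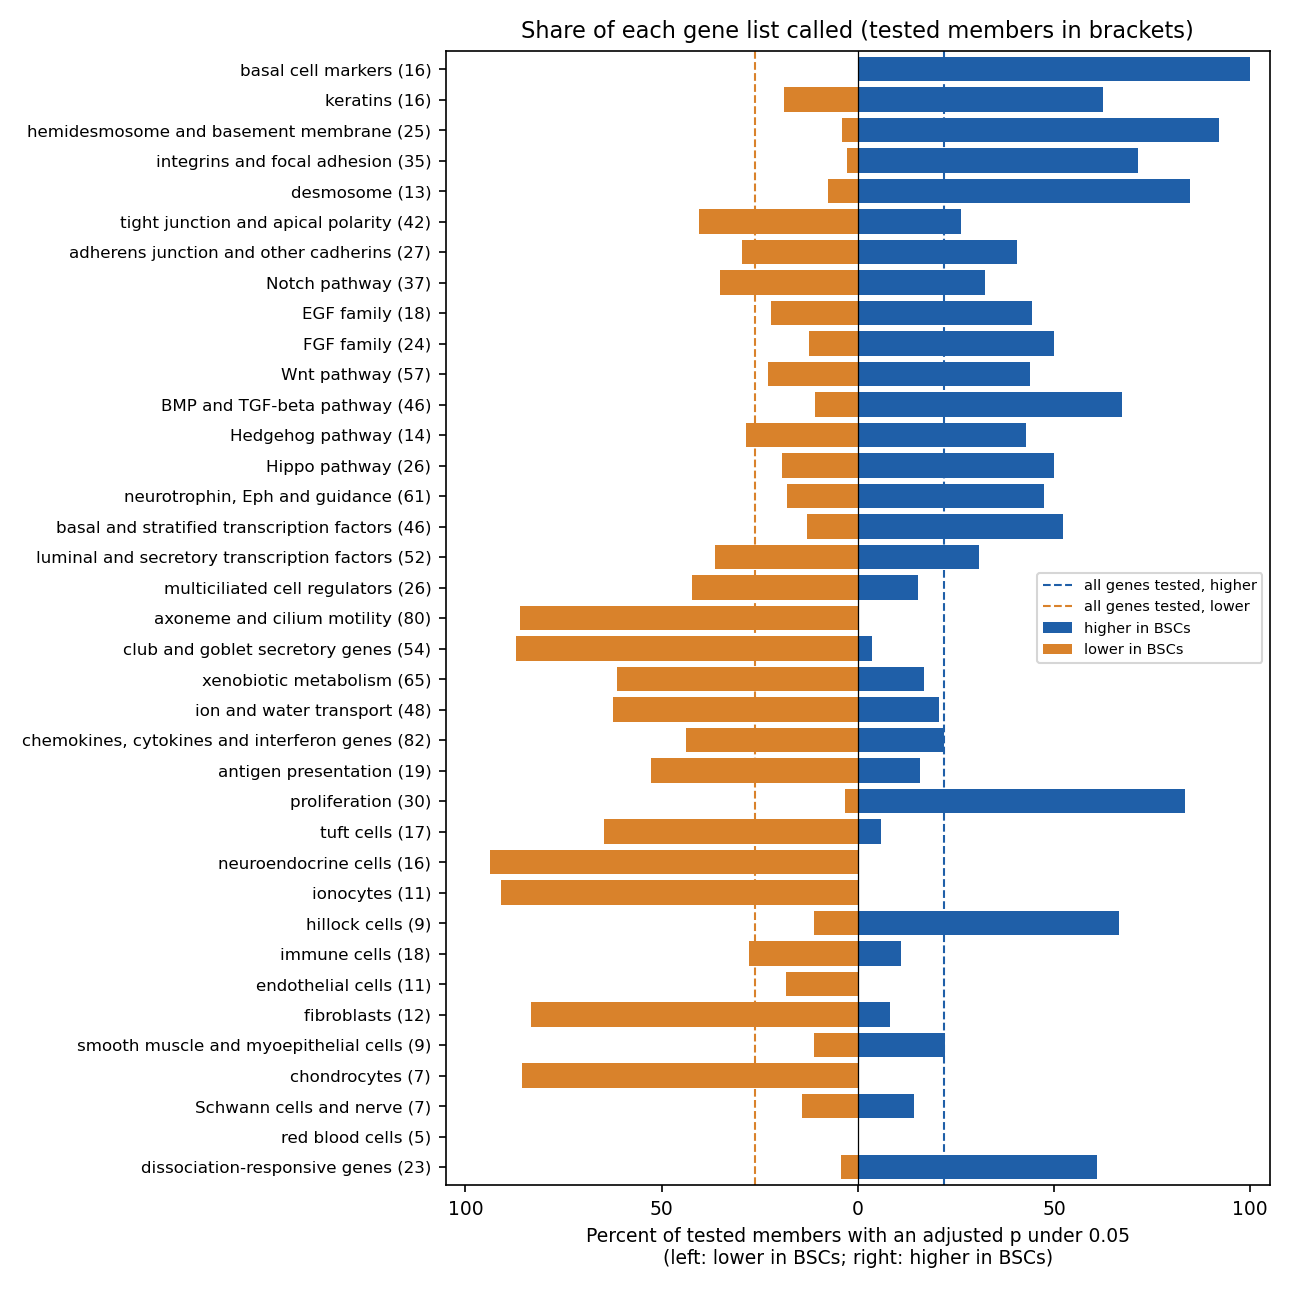
Percent of the tested members of each list called higher (right, blue) or lower (left, orange) in BSCs, with the number tested in brackets. The dashed lines are the shares over all 17989 genes, 21.9% higher and 26.2% lower; basal markers, matrix adhesion, desmosome and proliferation genes lie far to the right and axoneme, secretory, neuroendocrine and ionocyte genes far to the left.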

How the data were processed

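RNA of NGFR-positive and NGFR-negative tracheal cells of 3 C57BL/6 mice was sequenced beside 12 lung samples. Groups and mouse numbers are those of the sample labels, although the series' design text mentions lung airways only. Rsubread alignment to mm10 and featureCounts summaries by Entrez gene were the authors' steps, and they deposited whole-number counts and a gene length for 27179 genes, without normalization; the labels also name bcl2fastq 1.8.4. Use of strand in counting was not given in the sources used here, so overlapping genes on opposite strands cannot be told apart. One combined table, identical to the files by sample, was left aside. Each row named a gene (0 without a name), and NCBI's GRCm38.p6 gene table gave symbols and coordinates for 25275 identifiers.

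The 17989 genes above 0.2 CPM in at least 3 of 18 samples were scaled by TMM and fitted with edgeR 4.0.16 in R 4.3.3 (glmQLFit, glmQLFTest, and glmTreat for the 2-fold rule), with 1 mean per population, no block, and Benjamini-Hochberg adjustment over all genes. RPKM used the deposited gene length. Genes named are members of the gene lists, the 15 largest rises and falls among genes past the 2-fold rule with at least 10 CPM and no overlap, and the 10 highest by RPKM in either group. The groups and lists were chosen with earlier results of these data known. Alternatives were limma 3.58.1 (voom), DESeq2 1.42.0, scaling by RLE or by the unadjusted library size, a stricter CPM minimum of 1, no minimum, only the 6 tracheal samples, a gene length correction, the mouse as a block with and without it, and each tracheal sample left out.

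Samples of a number come from the same mouse by the labels. Their deviations from the group means had correlations of 0.336, 0.117 and 0.218 for mice 1, 2 and 3, against -0.257 to 0.0926 between mice. Deviations within a group sum to 0, so part of this contrast is built in. By chi-squared per degree of freedom, the BSC sample of mouse 1 stood at 23.3 and 29.6 from the others, which stood at 5.68 from each other. In non-basal samples these values were 21.5, 21.1 and 5.23. The workflow was tested on simulated counts of 17761 genes for this comparison: 166 of 200 changed genes and 11 unchanged genes were called. Results of some genes are not reported here.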

Additional observations from a re-analysis of the deposited data

How the results depend on the processing

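When counts were scaled by library size alone, 7780 genes were higher and 2989 lower in BSCs and 1258 passed the 2-fold rule as higher, as the median difference over all genes rose from -0.02 to 0.31 (log2). Of the named genes, *Cdh1* (0.14), *Ilk* (0.13), *Krt19* (0.14) and *Myb* (0.033) turned to a higher level in BSCs under it. The other counts over all genes stayed within 1.5 times under each alternative, between 8231 and 11200 genes in both directions for the alternatives on all 6 samples. With the mouse as a replicate block in a fit of the 6 tracheal samples, 5506 genes were higher and 5694 lower. Leaving out 1 sample gave 7395 to 8119 genes in both directions, and 2260 to 2401 past the 2-fold rule. Of 237 genes named, 233 were tested under every alternative, and 220 of these kept their direction and their side of the threshold. The other 4 (*Muc15*, *Nog*, *Ntrk2* and *Rfx4*) were under the filter in some alternatives. Lost or gained calls, of 15 genes in all, are given with the genes or concern the mitochondrial genes *COX1*, *CYTB* and *ND1* and the low *Ntrk2*. The cause was not tested. Lists with a median near 0, among them the tight junction, Notch, luminal factor and multiciliated regulator lists, changed the sign of that median in some fits. Genes with few reads in the tracheal samples, such as most fibroblast and chondrocyte markers, limit what can be said of them.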
